A study of Macaca mulatta with 6 samples.

Results

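Macaque chromosome 19 carries the long runs of zinc finger genes known from human chromosome 19. The genes described here were all those with a symbol of ZNF followed by a number and a locus on chromosome 19 in the deposited files. They filled 169 of 30246 gene rows and gave 167 genes, because ZNF230 and ZNF557 each had a second row and the row with the higher mean level was kept. RNA was sequenced from 6 lines of induced pluripotent stem cells (iPSCs) of the rhesus monkey, to set naive against primed pluripotency. The naive lines were 2 female and 2 male lines in the culture labelled 6SM, which had serum replacement at 15%, bFGF at 4 ng/ml, human LIF at 10 ng/ml and 4 kinase inhibitors: CHIR99021 (3 µM, against GSK3), PD0325901 (0.5 µM, against MEK), SB203580 (10 µM, against p38) and SP600125 (10 µM, against JNK). The primed lines were 2 male lines in hESM, a medium with 20% serum replacement and bFGF, so all lines were exposed to bFGF and no female primed line was analysed. No genetic change is labelled in any line. The labels do not tie the lines to donors, so the p-values here measure the spread between lines, which may share a source.

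Most of these genes encode KRAB zinc finger proteins, the largest family of DNA-binding repressors in primates. A KRAB protein reads DNA through an array of C2H2 fingers, each contacting a few bases, and its KRAB box holds the scaffold protein TRIM28 (KAP1). TRIM28 brings the histone methyltransferase SETDB1, heterochromatin protein 1 and the NuRD complex, which leave H3K9 trimethylation and silence the site. Many members bind retroelements, and in early embryos and pluripotent cells the system keeps such elements silent and protects imprinted regions. The genes arose by tandem duplication, so neighbours are similar in sequence, and the sources used here do not say how reads matching several genes were counted.

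Levels are given in FPKM. The authors computed this unit by dividing the fragments of a gene by its transcript length and by the mapped fragments of the library. Depth differed between the groups. The deposited error bounds gave 8294782 and 10013491 effective fragments for the female naive libraries, 1754857 and 1478692 for the male naive libraries, and 9970137 and 7607125 for the primed libraries. A tested member had a median of 67.8 and 78.3 effective fragments in female naive, 16.8 and 14.9 in male naive, and 82.7 and 71.0 in the primed libraries, so low members were measured least well in male naive cells. Effective fragments are not read counts, since wide bounds of any source lower them: ZNF253 had 128 and 26 in the female naive libraries at 13.1 and 11.2 FPKM. POU5F1 and NANOG, core factors of pluripotency, were read as markers of pluripotent cells and not as a check of the state labels. POU5F1 stood at 738 and 1160 FPKM in female naive, 536 and 571 in male naive, and 135 and 109 in the primed libraries. NANOG stood at 73.8 and 95.9 FPKM in female naive, 28.7 and 30.7 in male naive, and 0.933 and 2.09 in the primed libraries. The primed cells thus carried little NANOG RNA, while SOX2 was at 85.3 FPKM or more in every library and LIN28A was listed at 0 in all 6. Of 10 pluripotency markers 9 were tested, and by the test given below 6 were higher and 0 lower in naive cells. That is 66.7% called, against 11.3% of all tested rows. Among the 6, TDGF1 was at 0 and 0.82 FPKM and PRDM14 at 0.52 and 1.13 in the primed libraries. SOX2, SALL4 and LIN28B were not called. Among markers of other cells, the summed FPKM of 11 fibroblast and feeder genes was 1161 to 1885 in the naive and 550 and 1147 in the primed libraries. Most of it was TAGLN. By the same test 0 of the 10 tested passed, with 4 at an unadjusted p under 0.05 in limma (40.0%, against 30.9% of all tested rows). The sum of 8 neural genes was 197 to 365 in the naive and 675 and 881 in the primed libraries. CRABP1 alone supplied 408 and 634 FPKM of the primed sums. NES, which was not tested, averaged 225 FPKM in the naive and 168 in the primed libraries. Of the 7 tested, 4 were lower in naive cells (57.1%, against 4.59% of all tested rows). The part of such cells in the results below was not tested, and in bulk RNA a change in the share of a cell type and a change in RNA per cell cannot be told apart.

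As a family, the chromosome 19 zinc finger genes were expressed at low and similar levels in all 3 groups. The median member stood at 3.39 and 3.14 FPKM in female naive, 3.88 and 3.8 in male naive, and 3.41 and 3.58 in the primed libraries. Over the 6 libraries 23 members averaged under 1 FPKM, 83 lay between 1 and 5, 54 between 5 and 20, and 7 at 20 or more. The summed FPKM of all members but ZNF320, whose value is treated separately below, was 917 and 926 in female naive, 1019 and 1031 in male naive, and 957 and 934 in the primed libraries. The male naive libraries gave the highest sums, and the female naive and primed sums lay close together. The unscaled files as a whole had the male naive libraries highest too: the median of all tested rows was 10.8 and 10.5 FPKM in female naive, 11.98 and 11.8 in male naive, and 11.3 and 11.2 in the primed libraries. The profile over the 167 members did not sort the libraries by state: Pearson's r of log2(FPKM + 1) over members was 0.944 between the female naive libraries, 0.928 between the male naive libraries and 0.941 between the primed libraries, while pairs of libraries from different groups gave 0.902 to 0.943. These are descriptions over genes, which are not independent replicates.

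Few of these genes were called between naive and primed cells. A gene was tested where it reached 1 FPKM in at least 2 libraries, which 150 of the 167 members did, and differences are on log2(FPKM + 1), where a change in a low gene is understated. Limma with Benjamini-Hochberg adjustment over all 13685 tested rows called 4 members higher and 1 lower in naive cells, which is 3.33% of the members. The background over all tested rows was 11.3%, with 6.72% called higher and 4.59% lower. At an unadjusted p under 0.05 there were 17 members, 9 higher and 8 lower, or 11.3% of the members against 30.9% of all rows. A naive range wholly above the primed range was seen for 15 members (10.0%, against 18.9% of all rows) and one wholly below it for 13 (8.67%, against 15.9%). By all these rules the share of members was below that of the files as a whole.

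The differences of the members were small in size as well as few past the threshold. Their median was -0.06 on the log2 scale, against 0.035 over all tested rows, and the median size without regard to sign was 0.18, against 0.32. A difference under 0.5 was found for 132 members (88.0%, against 68.0% of all rows), and 2 members (1.33%) reached a difference of 1 or more, against 10.1% of all rows. Most members are low genes, so they were also set beside other low rows. Among rows with a mean under 20 FPKM, 9.48% of all tested rows were called, against 3 of 143 members (2.10%), and the median sizes were 0.35 for all such rows and 0.18 for the members. These sets were not matched in level, with medians of 6.09 FPKM for all such rows and 3.85 for the members. The 194 tested zinc finger genes of the same naming at other loci gave 5 higher and 9 lower calls (7.22%), with a median size of 0.25. Their median level was 6.71 FPKM, against 3.97 for the tested members. The median standard error of a member's difference was 0.23, so a difference of that order could not be resolved for a single gene. Much larger ones went uncalled too, such as 0.75 for ZNF114 and 0.80 for ZNF296. The small number of calls thus does not show that the other members were unchanged.

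**Figure D1:**
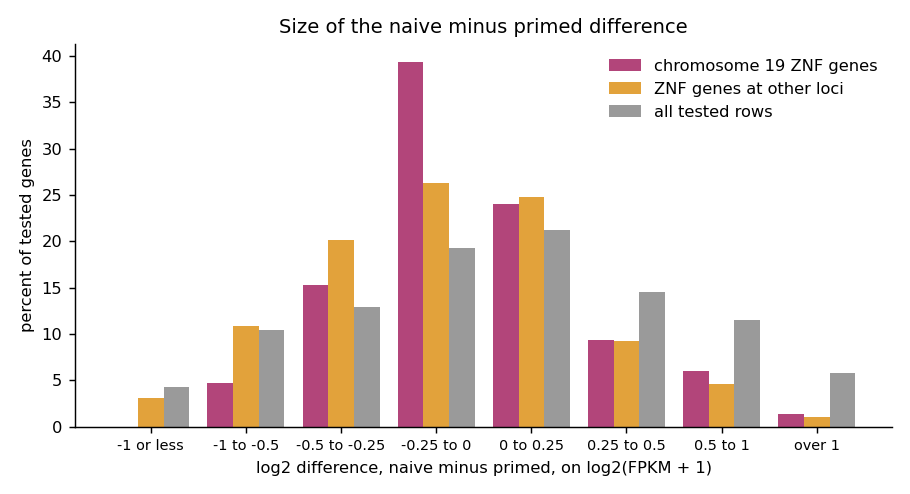
Percent of tested genes (vertical axis) in each range of the log2 difference, naive minus primed, on log2(FPKM + 1) (horizontal axis), for the 150 tested chromosome 19 ZNF genes, the 194 tested ZNF genes at other loci and all 13685 tested rows. The chromosome 19 genes gather within 0.25 of 0, with 39.3% between -0.25 and 0 and 24.0% between 0 and 0.25, and none at -1 or below.

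ZNF229 was the member that changed most. It encodes a KRAB zinc finger protein in human and lay at 50825829 to 50827119 on chromosome 19 in the coordinates of the deposited files (ENSMMUG00000012808), whose genome build is not given in the sources used here. Its level was 49.5 and 72.7 FPKM in female naive, 36.9 and 39.0 in male naive, and 12.8 and 13.4 in the primed libraries. Every naive library was thus above both primed libraries, and the female naive libraries were above the male naive ones. The naive mean of 49.5 ± 16.4 FPKM (SD, n = 4) was 3.79 times the primed mean of 13.1 ± 0.409 (SD, n = 2). The log2 difference was 1.79 with a standard error of 0.175 (limma, adjusted p = 0.00824). It rested on 105 to 1316 effective fragments a library, and it was called under all 18 alternative settings that were run, leaving out each library in turn among them, with limma's adjusted p between 0.00302 and 0.0420. It was the only one of the 5 called members for which that held.

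ZNF506 and ZNF626 were higher in naive cells and lay in the same cluster, that of ZNF14 to ZNF99. Both encode KRAB zinc finger proteins in human. ZNF626 (ENSMMUG00000022527, 20022258 to 20035156) stood at 10.4 and 8.09 FPKM in female naive, 10.4 and 12.5 in male naive, and 4.12 and 4.87 in the primed libraries. ZNF506 (ENSMMUG00000028833, 19481484 to 19494061) stood at 14.1 and 13.1 FPKM in female naive, 12 and 9.34 in male naive, and 6.19 and 5.27 in the primed libraries. For both genes the naive libraries lay above the primed ones without overlap, in both sexes. The naive means were 2.3 times the primed mean for ZNF626 and 2.11 times for ZNF506, with log2 differences of 1.04 ± 0.19 and 0.95 ± 0.18 (SE; limma, adjusted p = 0.0265 and 0.0270). Neither call held with any 1 library left out, where limma's adjusted p was 0.0524 to 0.0954 for ZNF626 and 0.0605 to 0.0765 for ZNF506. The call of ZNF626 held in 7 of 18 alternative settings and that of ZNF506 in 11. With sex ignored neither passed (limma, adjusted p = 0.061 for ZNF626 and 0.070 for ZNF506). ZNF626 was also lost with no filter and without both male naive libraries (limma, adjusted p = 0.0515 and 0.0897). The male naive values of ZNF506 rested on only 5.3 and 4.2 effective fragments.

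ZNF586 stood highest in male naive cells. It encodes a KRAB zinc finger protein in human and lay at 63602656 to 63618266 (ENSMMUG00000005338). It stood at 6.00 and 6.48 FPKM in female naive, 14.6 and 13.4 in male naive, and 5.77 and 4.29 in the primed libraries. The naive range did not overlap the primed one, but the female naive libraries stood closer to the primed than to the male naive libraries. The log2 difference of naive and primed was 0.80 ± 0.18 (SE; limma, adjusted p = 0.0429), and it was 0.27 without the male naive libraries, where limma's adjusted p reached 0.521. The call held in 5 of 18 alternative settings: it was lost with any 1 library left out (limma, adjusted p = 0.0699 to 0.118) and under upper-quartile and median-of-ratios scaling. The next member along the chromosome, ZNF552 (63620258 to 63625014), also a KRAB gene in human, had the same order of groups: 5.12 and 6.27 FPKM in female naive, 9.89 and 10.5 in male naive, and 4.83 and 4.78 in the primed libraries. Its difference of 0.58 did not pass (limma, adjusted p = 0.0834). The male naive values rested on 16.6 and 12 effective fragments for ZNF586 and 23.8 and 20.8 for ZNF552.

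ZNF428 was the 1 member called lower in naive cells, and its female naive libraries were the low ones. It was at 15.9 and 18.4 FPKM in female naive, 34.6 and 36 in male naive, and 36.9 and 37.0 in the primed libraries (ENSMMUG00000004613, 50065378 to 50077436). The male naive libraries thus stood close to the primed libraries, and the female naive ones well below both. The log2 difference of naive and primed was -0.57 ± 0.12 (SE; limma, adjusted p = 0.0383), with adjusted p 0.0737 to 0.118 when 1 library was left out. That call held in 10 of 18 alternative settings and did not pass with sex ignored (limma, adjusted p = 0.391). Between male naive and male primed cells the difference was -0.06 (limma, adjusted p = 0.815). ZNF428 overlaps the row of SRRM5, and the sources used here do not say that strand was used in counting.

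**Figure D2:**
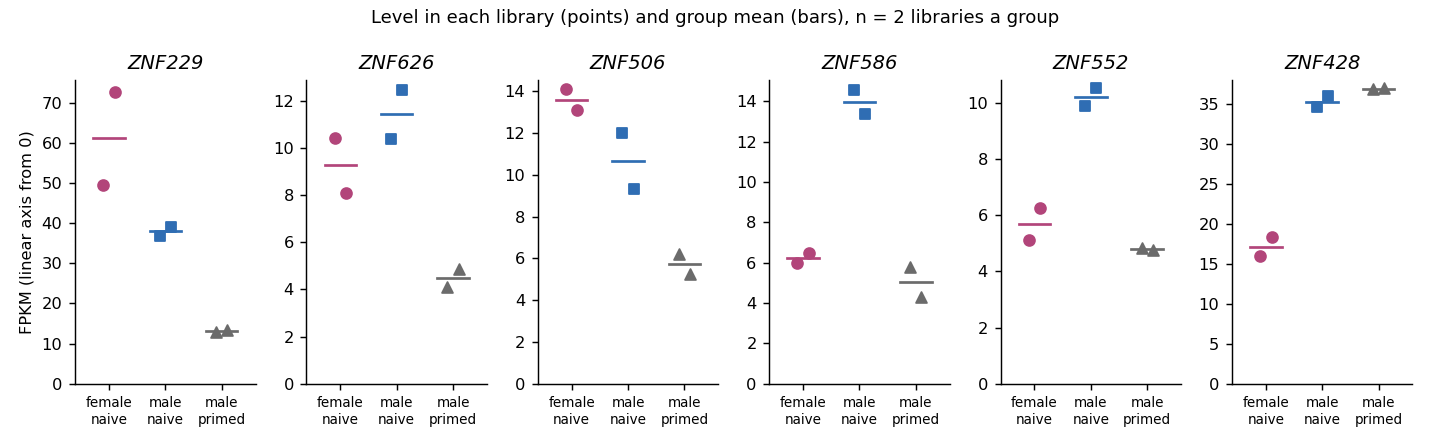
Level in FPKM (vertical axis, from 0, a scale of its own in each panel) of the 5 called members and of ZNF552, the neighbour of ZNF586, in each library, with female naive, male naive and male primed libraries from left to right; points are libraries and bars are the means of 2. ZNF229, ZNF626 and ZNF506 are high in both naive groups, ZNF586 and ZNF552 in male naive cells, and ZNF428 is low in female naive cells at 15.9 and 18.4 FPKM.

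Below the threshold, ZNF114 and ZNF296 had naive ranges above the primed ones. ZNF114, a KRAB gene in human, stood at 6.71 and 7.32 FPKM in female naive, 8.80 and 6.96 in male naive, and 4.73 and 3.39 in the primed libraries, a log2 difference of 0.75 ± 0.20 (SE; limma, adjusted p = 0.0669). ZNF296, whose mouse counterpart is known as a pluripotency-associated factor, stood at 2.87 and 3.90 FPKM in female naive, 4.21 and 4.70 in male naive, and 2.41 and 1.29 in the primed libraries, a log2 difference of 0.80 ± 0.25 (SE; limma, adjusted p = 0.0918). In the other direction ZNF429, in the cluster of ZNF506 and ZNF626, stood at 3.45 and 3.74 FPKM in female naive, 3.09 and 3.4 in male naive, and 5.15 and 6.48 in the primed libraries, a log2 difference of -0.62 ± 0.19 (SE; limma, adjusted p = 0.0915). These genes were named after their values were seen.

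The most abundant members changed little, apart from ZNF229 and ZNF428, which were among the 10 with the highest mean level. ZNF146, which has zinc fingers but no KRAB box in human, stood at 48.1 and 37.4 FPKM in female naive, 51.6 and 48.5 in male naive, and 37.8 and 45.1 in the primed libraries, on 217 effective fragments or more. Its naive and primed ranges overlapped, with a log2 difference of 0.15 ± 0.15 (SE; limma, adjusted p = 0.531), but the male naive libraries lay above the primed ones. ZNF581 stood at 29.7 and 32.4 FPKM in female naive, 34.9 and 38.7 in male naive, and 58.5 and 38.2 in the primed libraries; the first primed library alone was high, and the difference of -0.47 did not pass (limma, adjusted p = 0.149). That difference was -0.17 without the first primed library and -0.77 without the second, where it was called lower (limma, adjusted p = 0.0386). ZNF211, a KRAB gene in human, stayed between 21.4 and 26.3 FPKM in all 6 libraries. The other 4 of the 10 below ZNF320, which were ZNF738, ZNF561, ZNF534 and ZNF787, had differences between -0.18 and 0.29 and none was called.

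ZNF320 had the highest listed level, with wide error bounds. It stood at 291 and 279 FPKM in female naive, 296 and 401 in male naive, and 316 and 443 in the primed libraries. Those values rested on 18.2 and 23.5, 3.7 and 3.8, and 25.8 and 28 effective fragments, fewer than those behind ZNF146 at a far lower FPKM. Its log2 difference of -0.25 ± 0.18 did not pass (SE; limma, adjusted p = 0.397), and its FPKM is not read here as a level comparable with other members. The row overlaps that of ZNF83, which also overlaps ZNF611 and ZNF468.

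Members with known retroelement targets in human were examined as a list of 12 symbols. The files held 7 of them and all 7 were tested. None was called in either direction, and none had an unadjusted p under 0.05 in limma, where the shares over all tested rows were 11.3% and 30.9%. The median difference was -0.25, against 0.035 over all tested rows. That median is the value of ZNF320 itself, which is among the 7 and has the wide error bounds given above. ZNF534, which binds HERVH elements in human, stood at 21.2 and 19.6 FPKM in female naive, 19.7 and 20.9 in male naive, and 16.5 and 16.6 in the primed libraries. The naive range lay above the primed one, but the difference of 0.29 ± 0.13 did not pass (SE; limma, adjusted p = 0.187). ZNF91, known for silencing SVA elements in human, was listed at 0 in the first female naive and both male naive libraries and stood at 1.72 FPKM in the second female naive library, against 1.62 and 0.409 in the primed libraries. ZNF675, which lies in the cluster of ZNF91, stood at 5.04 and 9.25 FPKM in female naive, 2.74 and 7.86 in male naive, and 7.65 and 8.33 in the primed libraries, so libraries of 1 group were as far apart as the groups. For ZNF382, ZNF528 and ZNF611 the naive and primed ranges overlapped as well, with differences of -0.45, -0.01 and -0.18. The male naive libraries of ZNF382 lay below its primed ones.

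The genes lay in runs along the chromosome. With members joined where their starts lay within 500000 bases of each other there were 22 clusters, of which 8 held 5 or more members and 146 members between them. No large cluster had a median difference far from 0: the medians of the log2 difference in the 8 ran from -0.29 to 0.19. The cluster with the highest median, ZNF14 to ZNF99, held ZNF506 and ZNF626 but also ZNF429, and 8 of its 15 tested members had positive differences. The lowest was that of ZNF91 to ZNF254, with a median level of 0.665 FPKM, in which all 4 tested members had negative differences and none was called. Its members were not all low, as ZNF675 and ZNF681 averaged 6.81 and 5.69 FPKM. The largest cluster, ZNF628 to ZNF446, the last along the chromosome, had 39 tested members with a median of -0.08, of which ZNF586 alone was called. In the cluster of ZNF576 to ZNF180, which held ZNF428 and ZNF229 with opposite calls, the median was -0.04. The other 4 large clusters, which begin with ZNF317, ZNF653, ZNF146 and ZNF175, had medians of 0.05, -0.11, 0.10 and -0.05 and no called member.

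**Figure D3:**
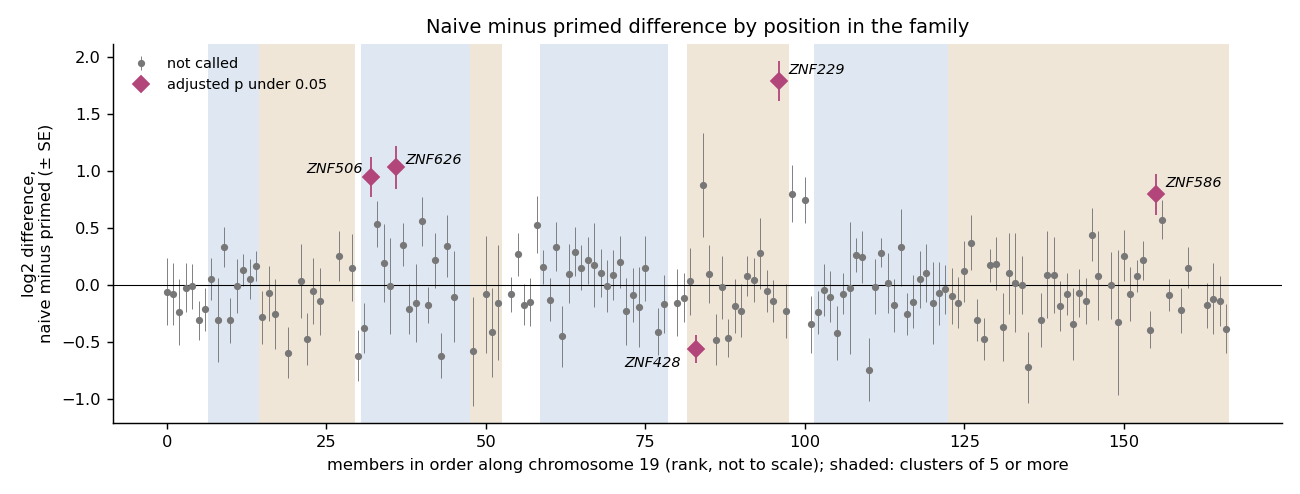
Log2 difference, naive minus primed, on log2(FPKM + 1) (vertical axis; lines show ± SE) of the 150 tested members by rank along chromosome 19 (horizontal axis, not to scale), with clusters of 5 or more members shaded in alternate colours. The 5 called members (diamonds) lie in 3 clusters, among neighbours on both sides of 0.

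Between male naive and male primed cells, where sex is the same but the gap in depth remains, 3 members were higher in male naive cells and none was lower. The spread in this fit was estimated over all 3 groups, the female lines among them. That is 2.00% of members, against 5.39% of all tested rows, of which 3.97% were higher and 1.42% lower. The 3 were ZNF229, ZNF586 and ZNF626. Their log2 differences were 1.47 ± 0.20 for ZNF229, 1.32 ± 0.21 for ZNF586 and 1.18 ± 0.22 for ZNF626 (SE; limma, adjusted p = 0.0178, 0.0257 and 0.0384). ZNF552 came next at 0.95 ± 0.20 (SE; limma, adjusted p = 0.0510), then ZNF506 at 0.79 ± 0.20 (adjusted p = 0.0772). With the male lines fitted alone 1 member was called higher, ZNF229 (limma, adjusted p = 0.0187), while ZNF586 and ZNF626 kept their differences at adjusted p = 0.0514 and 0.0633. With 1 library left out 0 to 1 members were called higher, and limma's adjusted p for ZNF229 rose above 0.05 without either male naive library or without the first primed library. Both comparisons use the same primed and male naive libraries, so the calls they share are not independent. The median over members was 0.06, against 0.09 over all tested rows, and under the 3 scalings of the libraries both turned negative, at -0.08 to -0.02 for members.

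Female and male naive cells differed at 1 member by the same test. ZNF428 was lower in female naive cells by a log2 difference of -1.003 ± 0.14 (SE; limma, adjusted p = 0.0225), at 17.1 ± 1.72 FPKM in female naive against 35.3 ± 1.02 in male naive cells (SD, n = 2 each). That 1 call is 0.667% of members, against 3.31% of all tested rows, of which 0.76% were higher and 2.55% lower; it was lost when any 1 naive library was left out. ZNF586 followed at -1.05 ± 0.21 (SE; limma, adjusted p = 0.0572) and then ZNF358, which stood at 11.2 and 11.1 FPKM in female naive, 21.2 and 22.7 in male naive, and 23.3 and 16.6 in the primed libraries (limma, adjusted p = 0.0663). Both passed when either primed library was left out of the fit (limma, adjusted p = 0.0458 and 0.0450 for ZNF586, 0.0395 and 0.0377 for ZNF358), as they did with the naive groups fitted alone (adjusted p = 0.0420 and 0.0390). ZNF552 and ZNF766, also among the 5 with the smallest p, had differences of -0.75 and -0.59 that did not pass. The female naive range lay below the male naive one for 54 members and above it for 14. Those shares, 36% and 9.33%, are set against 37.6% and 19.4% of all tested rows, which leaned the same way. The median over members was -0.155, against -0.10 over all rows. Both depended on scaling: with the libraries scaled by upper quartile, median of ratios or quantiles the members' median was -0.055, -0.037 and -0.026, against 0.008, 0.029 and 0.014 over all rows. The male naive libraries were the shallow ones, so sex and depth cannot be told apart here.

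Several members differed between libraries of the same group, as did a similar share of all tested rows. This pattern was noticed in the values, so no test is given. In 7 tested members the level was higher by more than 0.5 (log2) both in the second female naive library than in the first and in the first primed library than in the second; in 6 it was lower by that much in both, and in 0 the 2 pairs moved in opposite ways. Over all tested rows 6.44% moved the same way by this rule and 2.29% the opposite way, against 8.67% and 0% of members. Over the 150 tested members the 2 within-group differences had a Pearson's r of 0.574, against 0.359 over the 194 zinc finger genes at other loci and 0.263 over all 13685 rows. The points share their libraries, and many members have few fragments. With both differences taken as first minus second library, which turns the sign, r was -0.488 over the 132 members averaging 20 or more effective fragments. It was -0.305 over all 11666 such rows. ZNF550 was at 0.0782 and 2.74 FPKM in female naive, 0.730 and 0 in male naive, and 2.34 and 0.247 in the primed libraries. ZNF616 ran the other way, at 2.90 and 0.130 FPKM in female naive, 1.71 and 2.46 in male naive, and 0.669 and 2.98 in the primed libraries. The high and low libraries differed in fragments too, with 46.8 and 38.9 effective fragments for ZNF550 in the second female naive and first primed library against 0.6 and 2.4 in their partners. ZNF91, ZNF254, ZNF667, ZNF772, ZNF549 and ZNF132 shared the direction of ZNF550, and ZNF468, ZNF20, ZNF431, ZNF100 and ZNF569 that of ZNF616. None of these 13 members was called between naive and primed cells. The rule that picked them asks for a wide spread within 2 groups, which itself makes a call unlikely.

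Some markers of differentiated cells differed between the same libraries. The sum of 5 endoderm genes was 31.8 and 13.2 FPKM in female naive, 17.7 and 15.9 in male naive, and 2.78 and 13.2 in the primed libraries, and that of 6 trophoblast genes was 26.3 and 8.35, 15.1 and 9.43, and 0.796 and 7.23 in the same order. LUM, a fibroblast gene, was at 3.85 and 0.0739 FPKM in female naive, 1.88 and 0.495 in male naive, and 0.111 and 19.9 in the primed libraries. In these 3 the first female naive and second primed library were the higher of their pair. Gene by gene that order held for 4 of 5 endoderm, 4 of 6 trophoblast, 6 of 11 fibroblast and feeder, and 1 of 8 neural genes. AFP, an endoderm gene, ran the other way in both pairs, at 3.33 and 7.99 FPKM in female naive against 1.68 and 0.600 in the primed libraries. The summed fibroblast and feeder list did not follow the order in female naive cells, at 1161 and 1885 FPKM, against 550 and 1147 in the primed libraries. The neural sum did not either, at 197 and 299 FPKM in female naive against 675 and 881 in the primed libraries. The part of these cells in the pattern was not tested.

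**Figure D4:**
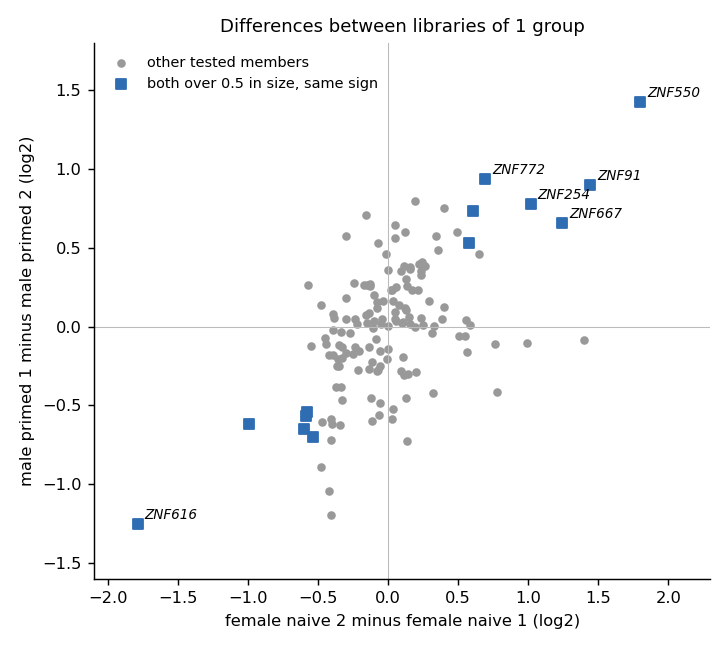
Log2 difference between the second and first female naive library (horizontal axis) and between the first and second primed library (vertical axis), on log2(FPKM + 1), for the 150 tested members. Squares mark the 13 members over 0.5 in size with the same sign in both pairs; 7 lie at the upper right and 6 at the lower left, and no member lies beyond 0.5 in the other 2 corners.

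RNA for most of the proteins through which KRAB members act was present in all 3 groups. A list of 25 cofactors and related repressors was found in 24 rows, of which 23 were tested; CBX3, a heterochromatin protein 1 gene, was listed at 0 in all libraries. Of the 23, 1 was called higher and 0 lower in naive cells (4.35%, against 11.3% of all tested rows), and the median difference was -0.06. At an unadjusted p under 0.05 in limma there were 5 (21.7%, against 30.9%). TRIM28, the scaffold, stood at 221 and 252 FPKM in female naive, 273 and 277 in male naive, and 253 and 227 in the primed libraries. Its naive and primed ranges overlapped (log2 difference 0.09; limma, adjusted p = 0.621), but the male naive libraries lay above the female naive and primed ones. SETDB1, its methyltransferase, stood at 28.8 and 26.3 FPKM in female naive, 26.7 and 30.2 in male naive, and 29.6 and 24.7 in the primed libraries (log2 difference 0.05; limma, adjusted p = 0.846). The naive range lay above the primed one for 3 of the 23, ZFP57, HDAC2 and SUV39H2 (13.0%, against 18.9% of all tested rows). It lay below the primed one for 2 (8.70%, against 15.9%). The called gene was ZFP57, a KRAB zinc finger gene outside chromosome 19 that protects imprinted regions. It stood at 12.5 and 15.5 FPKM in female naive, 9.92 and 9.84 in male naive, and 4.48 and 4.73 in the primed libraries, with a log2 difference of 1.19 (limma, adjusted p = 0.0144). Its male naive values rested on 18 and 15 effective fragments, and its call under the alternative settings is not given here. ZNF445, the other KRAB protein known for imprint protection, was not on chromosome 19 either and stood at 6.08 and 7.30 FPKM in female naive, 7.06 and 8.36 in male naive, and 11 and 9.52 in the primed libraries. Its naive range lay below the primed one, but the difference of -0.46 did not pass (limma, adjusted p = 0.140).

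**Figure D5:**
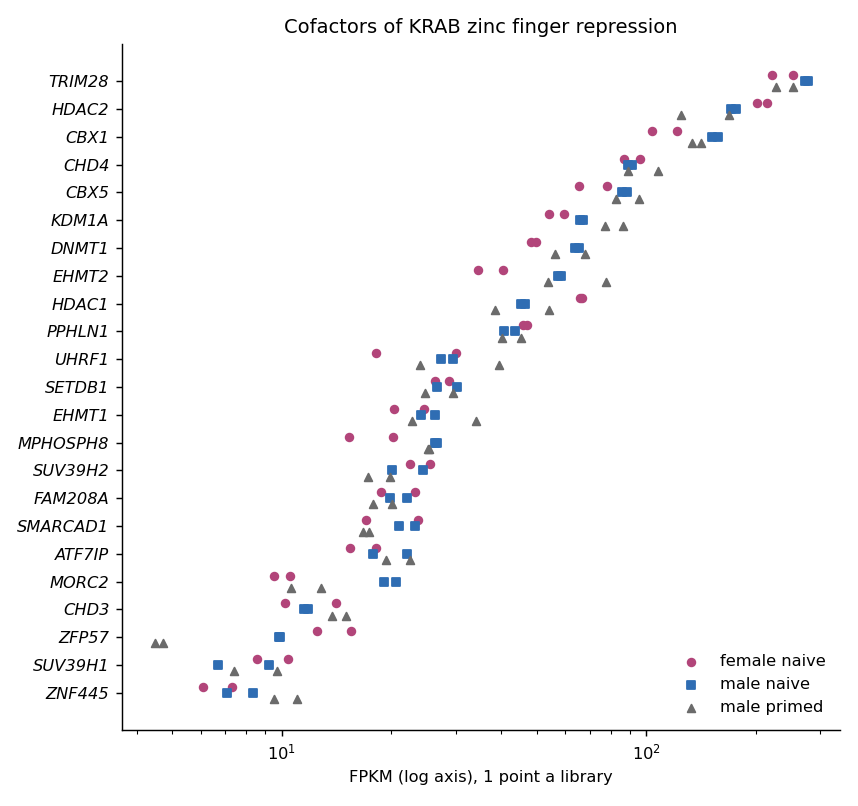
FPKM in each library (horizontal log axis, 1 point a library) of the 23 tested cofactors of KRAB zinc finger repression, ordered by mean level, with female naive points drawn above male naive and primed points. TRIM28 lies between 221 and 277 FPKM in every library, and ZFP57, the called gene, has its naive points at 9.84 FPKM or more and its primed points at 4.48 and 4.73 FPKM.

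The 17 members that were not tested were low in every library, with ZNF69 and ZNF99 listed at 0 in all 6 and ZNF878 reaching 1.94 FPKM at most. Symbols were taken as the files give them. A current table of names held 104 of the 167 gene identifiers and gave 11 of them another ZNF symbol, ZNF749 for ZNF17 and ZNF701 for ZNF468 for example; none of the 5 called members was among the 11. The spans of 13 members overlapped another member's, ZNF224 with ZNF234, ZNF227 and ZNF233 among them, and reads there could be split between genes. The second row of ZNF557 had a mean of 5.30 FPKM, against 7.17 in the row used, and that of ZNF230 had 1.57, against 5.36 in the row used; neither row of either gene was called.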

How the data were processed

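The authors sequenced RNA from 6 rhesus iPSC lines whose feeder cells had been taken away, per the labels' protocols. TopHat 1.3.0 is the aligner in the submitters' processing notes; build, annotation and quantifier version are not given in the sources. The deposited unit is FPKM with error bounds and a status per gene, per the file headers, and nothing states a scaling across libraries. Since the bounds are 2 SD wide on each side, effective fragments were computed as (2 × FPKM / (upper bound − FPKM)) squared; wide bounds, whatever their source, lower this value, so it is not a read count.

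Testing covered the 13685 rows that reached an FPKM of 1 in 2 or more libraries, after 40 rows were dropped for status. Group means were modelled on log2(FPKM + 1) by limma 3.58.1 (R 4.3.3; trended prior; 3 residual degrees of freedom), weighting the female and male naive groups equally. Two-sided p-values were Benjamini-Hochberg adjusted over every tested row and called under 0.05. The model was checked on simulated data. The simulated noise was independent between libraries and had the same spread in each, so the check does not cover the gap in depth between groups. Alternatives varied the pseudocount, filter, scaling, weights, replicate block, sex term and libraries.

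Members and lists were chosen with earlier results of these data known. Named were called members, the 10 with the highest mean, the retroelement list, the 5 with the smallest p where fewer were called, called cofactors, TRIM28, SETDB1 and ZFP57; other names were picked after their values were seen.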

Additional observations from a re-analysis of the deposited data

How the results depend on the processing

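For naive against primed, 4 members were higher and 1 lower, with 1548 rows called in all. The higher members numbered 2 and all rows 941 with no filter; 1 and 250, with 0 lower, when sex was ignored; and 2 and 776 without both male naive libraries. Leaving out 1 library gave 1 to 2 members higher, 0 to 1 lower and 332 to 1150 rows in all. The 1 lower there, without the second primed library, was ZNF581. For male naive against male primed, 3 members were higher and 738 rows called; these were 1 and 400 with no filter, 1 and 447 with the compared groups alone, and 0 to 1 and 56 to 711 with 1 library left out. For female against male naive, 1 member was lower and 453 rows called; all rows were 268 with no filter, 3 members were lower with the compared groups alone, and 0 to 3 members and 49 to 600 rows with 1 library left out.

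First minus second library differences were correlated between groups. Over 13685 rows r was -0.06 for male with female naive, -0.05 for male naive with primed and -0.26 for female naive with primed. Over the 150 tested members these were -0.05, 0.24 and -0.57. With 1 difference a group, such values over genes cannot show whether the numbers pair the lines. A replicate block gave 2 members higher and 0 lower with 812 rows for naive against primed, 1 higher with 373 rows for male naive against male primed, and 0 lower with 207 rows for female against male naive. A block with the numbers crossed between female naive and primed, chosen after seeing the data and without the male naive libraries, gave 3 higher, 2 lower and 2027 rows. Other pseudocounts and scalings moved no count of members by over 1.5 times, though scaling moved the members' median for female against male naive to -0.055, -0.037 and -0.026, against -0.155 unscaled, and that for naive against primed to -0.138, -0.084 and -0.055, against -0.057 unscaled, and no called member reversed its direction under any setting run; of 63 differences of named members, 17 that were not called took the other sign at least once. With a median near 15 effective fragments a member, the male naive libraries limit what can be resolved for low members.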
